A study of Mus musculus with 11 samples.

Results

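The microRNAs of the pancreas and of endocrine cells on the array were followed in the livers of LivPGC-1β and WT mice, namely mmu-miR-7a, its star arm mmu-miR-7a*, mmu-miR-7b, mmu-miR-375, mmu-miR-216a, mmu-miR-216b and mmu-miR-217, written below without the species prefix. These 7 probes, of 655 on the array, were selected on their names and on the genotype difference already seen for miR-7a in these same livers. The genotype differences of these probes are therefore a description without a test, nothing is read from calls on them, and only their relations within each genotype were tested. LivPGC-1β mice are transgenic mice that overexpress PGC-1β, a transcriptional coactivator of mitochondrial and lipid metabolism genes, in the liver. They were compared with WT mice of the FVB/N strain, a strain that the study's methods do not state for the LivPGC-1β line. Both groups were 4 months old, were kept on a standard diet and were fasted overnight. Total RNA of 6 LivPGC-1β livers and 5 WT livers was hybridised to 11 arrays of a single Illumina microRNA bead chip. The study's methods state only that the LivPGC-1β line had been generated earlier, so neither its promoter nor its number of founder lines is given in the sources used here, and the sex of the mice is not given either.

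MicroRNAs are short RNAs cut from hairpin precursors, and they repress messenger RNAs that match their seed, the bases near their 5′ end. The arm of the hairpin that is mostly kept is called the guide, and the opposite arm is the star arm. In the pancreas, miR-375 and miR-7 are known as abundant microRNAs of the hormone-secreting islet cells, where miR-375 restrains insulin secretion and miR-7a acts on beta-cell growth and secretion. The acinar cells, which make digestive enzymes, are known for miR-216a, miR-216b and miR-217. Liver is not known as a main site of any of them, whereas miR-375 is also known from other epithelia.

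The sequences show how close the probes of each family stand to each other, which limits how far an array can separate them. Mature sequences of 6 of the 7 probes were found in RefSeq (GRCm38.p6), and miR-375 is named only. Capitals mark the seed, bases 2 to 8 counted from the 5′ end.
miR-7a: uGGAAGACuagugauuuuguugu
miR-7b: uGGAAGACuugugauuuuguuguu
miR-7a-1-3p: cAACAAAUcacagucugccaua
miR-7a-2-3p: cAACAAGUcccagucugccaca
miR-216a: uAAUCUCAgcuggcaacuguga
miR-216b: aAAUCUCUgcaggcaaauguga
miR-217: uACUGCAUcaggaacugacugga

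The guide arms miR-7a and miR-7b have the same seed and differ at 1 of the 23 bases compared, A10U with the miR-7a base first. Mature miR-7a comes from either of 2 hairpins, Mir7-1 (chr13:58392841-58392863, minus strand) and Mir7-2 (chr7:78888295-78888317, plus strand), and its level therefore does not tell them apart. Mir7-1 lies within Hnrnpk, a gene for an RNA-binding protein that most cells express. The array's annotation puts the miR-7a* probe on chromosome 13, which is the place of Mir7-1 and of its star arm miR-7a-1-3p (chr13:58392800-58392821, minus strand). The star arm of Mir7-2 (chr7:78888335-78888356, plus strand) differs from it at 3 of 22 bases (A7G, A10C and U21C). Mature miR-7b is encoded at chr17:56243017-56243040 on the plus strand. Of the acinar microRNAs, miR-216b (chr11:28746204-28746225), miR-216a (chr11:28757018-28757039) and miR-217 (chr11:28763761-28763783) lie on the plus strand of chromosome 11, with their hairpins inside 17645 bp. The sequences of miR-216a and miR-216b differ at 4 of 22 bases (U1A, A8U, U11A and C17A), and A8U falls in the seed. Whether the probes separate miR-7a from miR-7b, or the 2 star arms from each other, was not tested.
Precursor Mir7-1, shown because both arms were measured, with the guide and then the star arm in capitals: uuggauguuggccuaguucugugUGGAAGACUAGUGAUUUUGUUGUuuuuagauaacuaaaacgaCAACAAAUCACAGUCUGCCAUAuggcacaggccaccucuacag

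The arrays give an intensity for each probe, averaged over its beads, and a detection p-value of 0.01 or less against the chip's negative controls was taken as detected. Before normalization, median intensities ran from 619 to 871 in LivPGC-1β livers and from 743 to 1036 in WT livers, and 444 to 508 probes were detected in LivPGC-1β livers and 467 to 494 in WT livers. Intensities were quantile normalized, which gives every array the same set of values, and are given below as log2. The LivPGC-1β mice took chip positions 6 to 11 and the WT mice positions 1 to 5, so position and genotype cannot be told apart. Of the 493 probes detected on at least 5 arrays, limma with Benjamini-Hochberg adjustment called 8 higher and 2 lower in LivPGC-1β livers at an adjusted p under 0.05, which is 2.03% of the probes tested. With arrays scaled to a common median, 4 were called higher and 0 lower. The hepatocyte list, led by miR-122, had 0 of 6 tested microRNAs called, with a median difference of −0.00257 between genotypes. The number of arrays limits the precision.

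The 7 probes did not follow 1 pattern. miR-7a was lower in all 6 LivPGC-1β livers than in every WT liver, and so was its star arm, although most of the mean difference of the star arm came from 1 WT liver. miR-375 did not separate the genotypes and stood high in a single LivPGC-1β liver. Of the acinar microRNAs, miR-216a was at background in both genotypes, miR-217 was detected in few livers and miR-216b in all. Of the 7 probes, 5 passed the detection filter. Of these, 1 was called lower and 0 higher. The lower one was miR-7a, which was chosen by that call, so nothing is read from it beside the 0.406% of all tested probes that were called lower. All LivPGC-1β livers lay below all WT livers for 2 of the 5, where 1.22% of all tested probes did so, and this too is the contrast that chose them.

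The guide arm miR-7a had normalized intensities of 13.53, 13.47, 13.45, 13.45, 13.45 and 13.53 in LivPGC-1β mice 1 to 6, against 13.74, 13.84, 13.78, 13.87 and 13.67 in WT mice 1 to 5. The groups did not overlap, and the highest LivPGC-1β livers and the lowest WT liver, mouse 5, were 0.13 apart. miR-7a averaged 13.48 ± 0.04 in LivPGC-1β livers (SD, n = 6) and 13.78 ± 0.08 in WT livers (SD, n = 5), a difference of −0.30 (standard error 0.040) or 0.815-fold. In bulk tissue, fewer cells that hold a microRNA and less of it per cell cannot be told apart. The intensities before normalization did not overlap either, at 9970 to 13212 in LivPGC-1β livers and 13593 to 15613 in WT livers. Quantile normalization rests on the order of probes within an array, where miR-7a held places 71 to 76 of 655 in LivPGC-1β livers and places 57 to 64 in WT livers. Mice 3, 4 and 5 of the LivPGC-1β group have the same normalized value because miR-7a held place 76 in each.

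**Figure D1:**
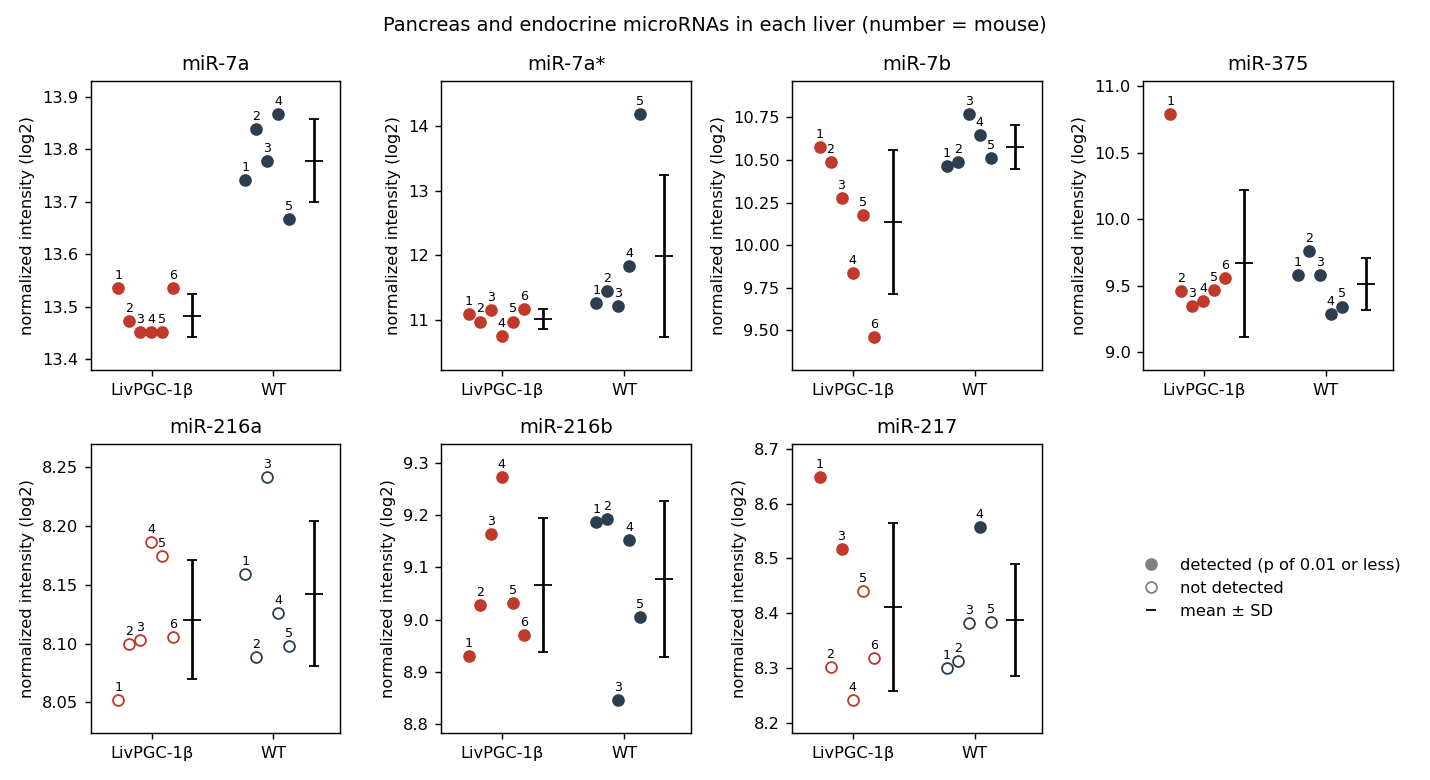
Normalized intensity (log2) of the 7 probes in each liver, with LivPGC-1β mice in red and WT mice in dark blue, numbered by mouse, and the mean ± SD beside each group. Filled points were detected and open points were not. For miR-7a the LivPGC-1β livers end at 13.53 and the WT livers start at 13.67, while miR-7a* in WT mouse 5 (14.18) and miR-375 in LivPGC-1β mouse 1 (10.79) stand apart from the rest.

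The size of the miR-7a difference depended on the scaling. Without normalization it was −0.37, where the median over all tested probes was −0.14, and with arrays scaled to a common median it was −0.12, where the median over all tested probes was 0.11. Relative to that median the difference was −0.23 in both cases, necessarily so, since scaling shifts all probes of an array alike. After quantile normalization the relative difference was −0.30, where the median was 0.01. With arrays scaled to a common median, LivPGC-1β and WT livers overlapped for miR-7a. Leaving out each mouse in turn gave differences of −0.31 to −0.27.

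The star arm miR-7a* had normalized intensities of 11.09, 10.98, 11.15, 10.75, 10.98 and 11.17 in LivPGC-1β mice 1 to 6, against 11.26, 11.45, 11.21, 11.83 and 14.18 in WT mice 1 to 5. The groups did not overlap, but the gap between them was only 0.04, and WT mouse 5 stood far above the other livers of both genotypes. They did overlap with arrays scaled to a common median. Means were 11.02 ± 0.15 in LivPGC-1β livers (SD, n = 6) and 11.99 ± 1.25 in WT livers (SD, n = 5), a difference of −0.97 (standard error 0.477). Without WT mouse 5 the difference was −0.42. Before normalization the probe read 18409 in WT mouse 5 and between 1530 and 3651 in the other 10 livers. WT mouse 5 was 5.08-fold above the next liver, WT mouse 4, and 8.11-fold above the median of the other livers.

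In WT mouse 5 the guide arm did not go with the star arm. That liver had the lowest miR-7a value of the WT group, at 13.67, and its miR-7b value of 10.51 was in place 4 of 11. The islet microRNA miR-375 read 9.34 there, in place 10 of 11, and neither miR-216a nor miR-217 was detected (detection p 0.629 and 0.133). Over all livers miR-216a was detected in none and miR-217 in only 3 of 11. The third acinar microRNA, miR-216b, was detected in WT mouse 5, in place 8 of 11.

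**Figure D2:**
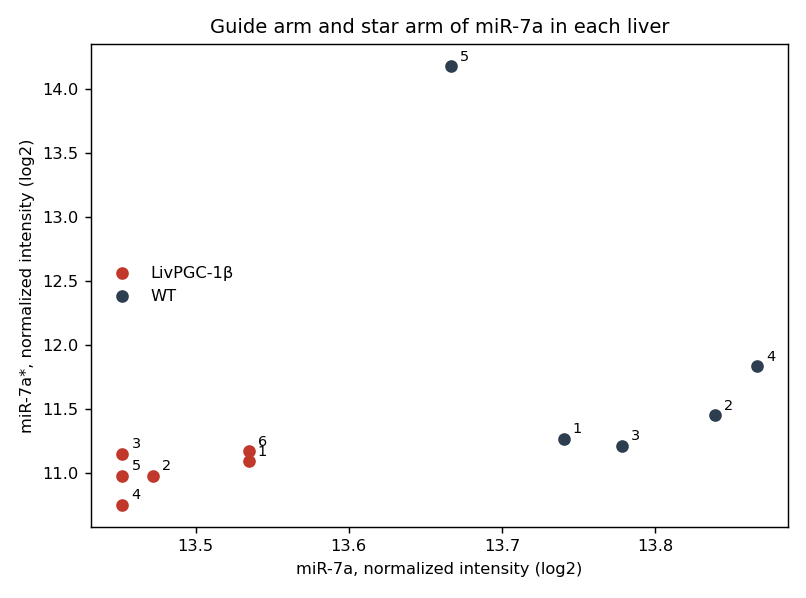
Normalized intensity (log2) of the guide arm miR-7a on the horizontal axis and of the star arm miR-7a* on the vertical axis, one point per liver, LivPGC-1β in red and WT in dark blue, numbered by mouse. The LivPGC-1β livers lie at the lower left on both axes, and WT mouse 5 lies at 14.18 for the star arm with the lowest guide value of the WT livers, 13.67.

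miR-7b, which has the seed of miR-7a, had normalized intensities of 10.58, 10.49, 10.28, 9.84, 10.17 and 9.46 in LivPGC-1β mice 1 to 6, against 10.47, 10.49, 10.77, 10.65 and 10.51 in WT mice 1 to 5. The groups overlapped, with 4 of 6 LivPGC-1β livers below every WT liver, and LivPGC-1β mouse 6 was the lowest of all. The means were 10.14 ± 0.42 in LivPGC-1β livers (SD, n = 6) and 10.58 ± 0.13 in WT livers (SD, n = 5), a difference of −0.44 (standard error 0.185). The LivPGC-1β livers varied more than the WT livers, with intensities before normalization of 585 to 1753 in LivPGC-1β livers and 1460 to 2011 in WT livers. Chip position cannot be told apart from genotype, and with it as a covariate the difference was 0.21 (standard error 0.303). The difference was negative under the other 19 alternatives.

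miR-375, the islet microRNA, had normalized intensities of 10.79, 9.46, 9.35, 9.39, 9.47 and 9.56 in LivPGC-1β mice 1 to 6, against 9.58, 9.77, 9.58, 9.29 and 9.34 in WT mice 1 to 5. It was detected in all 11 livers, and apart from LivPGC-1β mouse 1 the genotypes overlapped. The means were 9.67 ± 0.55 in LivPGC-1β livers (SD, n = 6) and 9.51 ± 0.19 in WT livers (SD, n = 5), and the difference of 0.16 (standard error 0.246) was smaller than the spread between livers. Without LivPGC-1β mouse 1 it turned to −0.07. A fit of all livers with chip position, which cannot be told apart from genotype, gave 0.96 (standard error 0.420). In LivPGC-1β mouse 1 miR-375 was 2.03-fold above the next liver, WT mouse 2, and 2.50-fold above the median of the other livers. Before normalization it read 2019 there, against at most 995 elsewhere.

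Of the acinar microRNAs, miR-216a was detected in 0 of 11 livers, with a smallest detection p of 0.161 and normalized values of 8.05 to 8.19 in LivPGC-1β livers and 8.09 to 8.24 in WT livers. miR-217 was detected in LivPGC-1β mice 1 and 3 and in WT mouse 4, which is 3 of 11 livers, and was not tested. Its values were 8.24 to 8.65 in LivPGC-1β livers and 8.30 to 8.56 in WT livers, so the genotypes overlapped. miR-216b was detected in every liver, at 8.93, 9.03, 9.16, 9.27, 9.03 and 8.97 in LivPGC-1β mice 1 to 6, against 9.19, 9.19, 8.85, 9.15 and 9.01 in WT mice 1 to 5. Its means were 9.07 ± 0.13 in LivPGC-1β livers (SD, n = 6) and 9.08 ± 0.15 in WT livers (SD, n = 5), and the difference was −0.01 (standard error 0.081). No liver was high in all 3 acinar microRNAs, and their summed normalized intensity ran from 1096 to 1215 in LivPGC-1β livers and from 1097 to 1225 in WT livers. These sums include background, which was not subtracted.

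**Figure D3:**
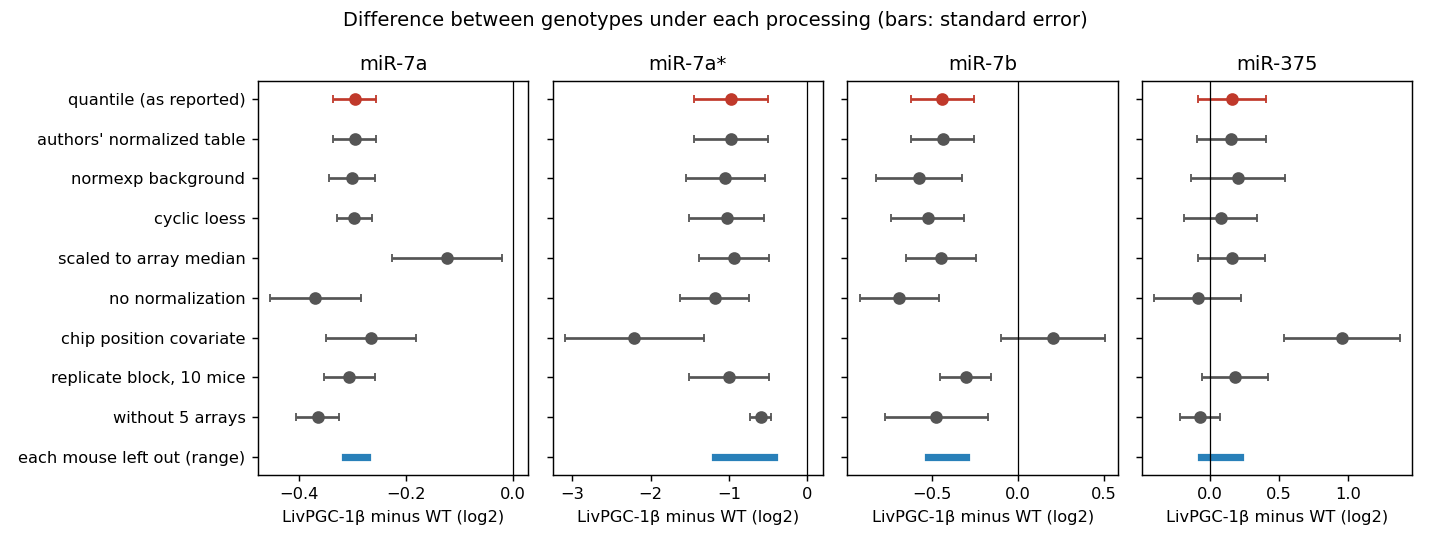
Difference in normalized intensity between genotypes (LivPGC-1β minus WT, log2) for miR-7a, miR-7a*, miR-7b and miR-375 under quantile normalization (red) and under other processing (grey), with standard errors, and the range over leaving out each mouse (blue bar). miR-7a and miR-7a* lie left of 0 throughout, miR-7b crosses 0 with chip position as a covariate (0.21), and miR-375 lies on both sides of 0.

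Among the 5 tested probes, 2 had 1 liver more than 1 log2 above all other livers, which was the case for 5.88% of all tested probes. These were miR-7a* in WT mouse 5 and miR-375 in LivPGC-1β mouse 1, and the other probes that stood out in each of these livers differed. In WT mouse 5 the largest excesses over the next liver were those of miR-346 at 3.90, miR-7a* at 2.34, miR-504 at 2.28, miR-453 at 2.12 and miR-719 at 1.99. No other member of the islet and endocrine list was highest in that liver. The summed intensity of the list was 34298 there, against 15533 to 18315 in LivPGC-1β livers and 19050 to 21587 in the other WT livers. In every liver most of this sum was miR-7a and miR-7a*, so it restates their values and nothing more is read from it. By the median over the list, WT mouse 5 differed from the other livers by −0.07.

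In LivPGC-1β mouse 1 the largest excesses were those of miR-375 at 1.02, miR-218, known from neurons, at 0.80, the hepatocyte microRNA miR-802 at 0.60, miR-429 at 0.60 and miR-205 at 0.53. Both miR-429, of the miR-200 family, and miR-205 are known from epithelia, including the bile ducts in the case of the miR-200 family. Of the 8 epithelial and bile duct microRNAs, 6 were highest in this liver, as were 39 of all 493 tested probes. miR-200c exceeded the median of the other livers by 0.93, miR-141 by 0.93, miR-205 by 0.86, miR-200a by 0.46 and miR-200b by 0.37, whereas miR-203 and miR-31 were not highest there. The summed normalized intensity of the list was 62950 in LivPGC-1β mouse 1, against 44650 to 54018 in the other LivPGC-1β livers and 45176 to 51955 in WT livers.

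The acinar microRNAs moved differently in LivPGC-1β mouse 1. miR-217 was highest there, at 8.65 (detection p 5.07e-06), but miR-216a was lowest, at 8.05 (detection p 0.584), and miR-216b was in place 10 of 11, at 8.93. Their summed intensity of 1154 lay within the range of the other livers, but background was not subtracted, so this sum cannot show a small trace of pancreas. miR-7a was in place 6 of 11 in this liver. The part of other tissue or of bile duct epithelium in the miR-375 value was not tested.

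**Figure D4:**
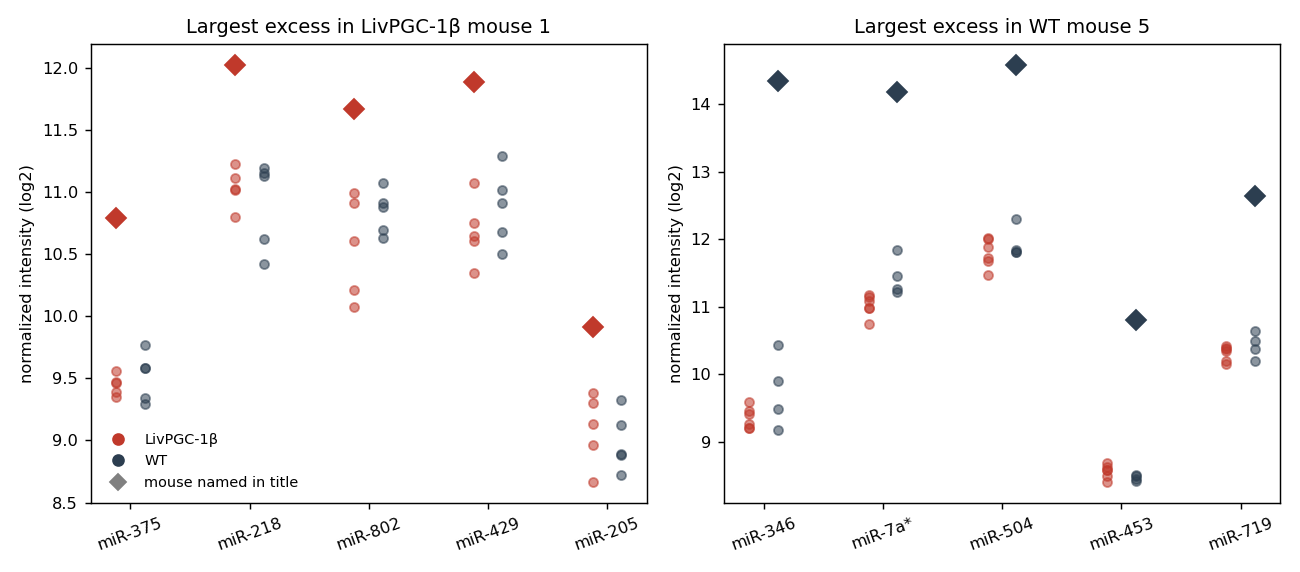
Normalized intensity (log2) of the 5 probes with the largest excess in LivPGC-1β mouse 1 (left panel) and in WT mouse 5 (right panel), with LivPGC-1β livers in red, WT livers in dark blue and the liver named in the title as a diamond. miR-375 exceeded the next liver by 1.02 in LivPGC-1β mouse 1 and miR-7a* by 2.34 in WT mouse 5, and the probes that went with each differed.

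**Figure D5:**
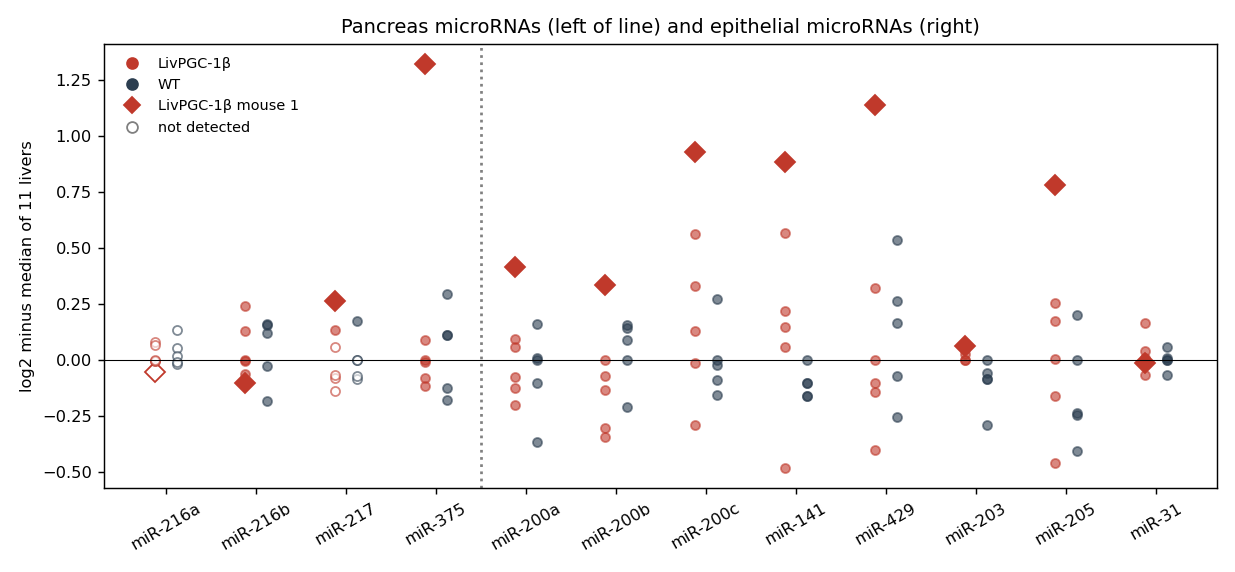
Normalized intensity minus the median of the 11 livers (log2) for the acinar microRNAs and miR-375, left of the dotted line, and for the 8 epithelial microRNAs, right of it. LivPGC-1β livers are red, WT livers dark blue, LivPGC-1β mouse 1 is a diamond and open points were not detected. LivPGC-1β mouse 1 is highest for miR-375, miR-217 and 6 of 8 epithelial microRNAs and lowest for miR-216a.

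The other tissue lists were set beside the 7 probes by counts. The islet and endocrine list, which adds miR-184 and miR-153 to the miR-7 probes and miR-375, had 0 of 6 called higher, 1 called lower, the miR-7a chosen by that call, and a median difference of −0.15. Its members went both ways. The miR-7 probes were lower, miR-184 differed by −0.01, and miR-375 and miR-153 were higher, by 0.16 and 0.56. The acinar list had 1 tested microRNA, 0 calls and a difference of −0.01. The neuronal list had 0 of 6 tested microRNAs called and a median difference of 0.12, with miR-124, the defining neuronal microRNA, detected in no liver. The epithelial list had 0 of 8 called and a median of 0.11, and the striated muscle list 0 of 4 and −0.66. The X-linked testis cluster had 0 of 10 and −0.45, and the intestine-linked list 0 of 3 and −0.05. Of the intestine-linked list, miR-192 and miR-194 were also in the hepatocyte list, so these lists are not separate. Single WT livers set the muscle and testis medians, which were 0.23 for the muscle list without WT mouse 1 and −0.06 for the testis cluster without WT mouse 3. The acinar difference changed sign with single livers, between −0.07 without WT mouse 3 and 0.02 without WT mouse 2. Over all tested probes 2.03% were called, so nothing is read from 0 calls in lists this short, and the median difference was 0.01.

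Whether the probes stood high or low together was tested within genotypes, after subtracting the mean of each genotype, which removes the contrast that chose them. None of the 10 pairs among the 5 tested probes passed, with a smallest adjusted p of 0.741 (two-sided exact permutation test over 86400 permutations within genotype, Benjamini-Hochberg over 10 pairs), 0 pairs under an unadjusted p of 0.05 and r between −0.53 and 0.40. The 2 arms, miR-7a and miR-7a*, had r = −0.53 (exact permutation p = 0.298) and rho = −0.18 (exact permutation p = 0.744). WT mouse 5 set that sign, and without it r was 0.76 (exact permutation p = 0.0264, adjusted 0.264). With arrays scaled to a common median, r over the 11 livers was 0.30. The guides miR-7a and miR-7b had r = 0.000104 (exact permutation p = 1.00) and rho = 0.19 (exact permutation p = 0.505).

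miR-7a and miR-375 had r = 0.38 (exact permutation p = 0.116, adjusted 0.741) and rho = 0.26 (exact permutation p = 0.394). Without WT mice 2 and 4, the 2 livers farthest from the median of miR-7a over both genotypes, r was 0.62 (exact permutation p = 0.0111 before adjustment). They were picked before the genotype means were subtracted, so the genotype difference had a part in the choice. Leaving out WT mouse 4 brought this 1 pair, miR-7a with miR-375, past the threshold, with r = 0.58. Its adjusted p was 0.0278 (exact permutation test, adjusted over 10 pairs but not over the mice left out in turn). Without LivPGC-1β mouse 1, which stood high in miR-375, r was 0.28 (exact permutation p = 0.565). With arrays scaled to a common median, r of this pair over the 11 livers was −0.12. For miR-7a with miR-7a*, r without WT mice 2 and 4 was −0.56, with WT mouse 5 still among the livers. For miR-7a with miR-7b, r without the same 2 livers was 0.00138. The highest r of all pairs, 0.40 for miR-7b with miR-375, turned to −0.25 without LivPGC-1β mouse 1.

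As a description, the 5 probes most like each tested probe within genotypes were found over the 11 livers. Those most like miR-7a were miR-17 (r = 0.87), miR-361 (0.84), let-7d (0.82), miR-28 (0.81) and a candidate small RNA known only from sequencing (0.81). Without WT mouse 5 these correlations were 0.69 to 0.89. Those most like miR-7a* were miR-346, miR-20a*, miR-129-5p, miR-708 and another candidate small RNA, at r of 0.97 to 0.99, which became 0.46 to 0.83 without WT mouse 5.

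Those most like miR-7b were miR-186 (r = 0.95), miR-683 (0.92), let-7f* (0.91), miR-343 (0.91) and miR-190 (0.90), and without LivPGC-1β mouse 6 the correlations were 0.75 to 0.87. Those most like miR-375 were miR-34c* (r = 0.81), miR-218 (0.77), miR-192 (0.72), miR-185 (0.72) and miR-429 (0.72). Without LivPGC-1β mouse 1, those of miR-34c* and miR-185 were 0.64 and 0.70, and those of miR-218, miR-192 and miR-429 were 0.27, −0.08 and −0.25. Those most like miR-216b were miR-466g (r = 0.86), a candidate small RNA (0.83), miR-301b (0.82), miR-467f (0.78) and miR-654-5p (0.74), and 0.59 to 0.87 without WT mouse 3. The 5 lists shared no probe, and all points shared 1 chip and its normalization.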

How the data were processed

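Hepatic total RNA of 6 LivPGC-1β and 5 WT mice was read on 11 arrays of 1 chip, and the labels do not pair the groups. The authors deposited, for each of 655 probes, the average bead intensity exported from Genome Studio without normalization or background subtraction. A detection p-value for each probe and array was deposited beside it. A second deposited table, with the authors' quantile-normalized intensity, served as an alternative. All value columns were matched to mice by their names, and 0 were left unmapped.

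Intensities were quantile normalized over 655 probes and 11 arrays and set on the log2 scale in R 4.3.3. Probes were kept if detected (p at or below 0.01) on 5 or more arrays of any genotype, and these 493 were fitted with limma 3.58.1, with Benjamini-Hochberg adjustment at 0.05, since the study names no test for the arrays. Each array is taken as 1 mouse, so that p-values measure the spread between mice of this chip. Correlations were tested by an exact permutation within genotype. Fit and permutation were tested on simulated data. A single-liver excess is the log2 value minus that of the next liver, and 1 log2 was the limit. Sums over a list are of normalized intensities on the linear scale.

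The 7 probes and all tissue lists were chosen with earlier results of these data known. All 7 are named, with the 5 probes most correlated with each tested one and, for a liver in which a probe exceeds the limit, its 5 largest excesses. Further microRNAs of the tissue lists were named after their values were seen. Alternatives were other normalizations and background, the authors' table, other detection filters, chip position, a replicate block, each mouse left out and, added after seeing the data, the same 10 mice without the block, tissue lists with each mouse left out and the 6 arrays free of single-liver excess. Sequences came from RefSeq tables.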

Additional observations from a re-analysis of the deposited data

Results flagged for a closer look

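Among the 14 groups examined, which are the 7 probes in each of the 2 genotypes, 2 held a liver whose gap to its nearest neighbour, as a share of the range of its genotype, passed Dixon's critical value for its number of livers. Chance alone marks about 1 in 20 such groups. miR-7a* in WT mouse 5 read 14.18, with the next WT liver at 11.83, and the gap was 0.790 of the range. miR-375 in LivPGC-1β mouse 1 read 10.79, with the next LivPGC-1β liver at 9.56, and the gap was 0.855 of the range.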

How the results depend on the processing

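The counts of called probes changed with most alternatives. Against 8 higher and 2 lower, 0 and 0 were called without normalization and 0 and 0 with chip position as a covariate. Scaling to the array median gave 4 and 0. Without the 5 arrays of LivPGC-1β mice 1 and 4 and WT mice 1, 3 and 5, each with a single-liver excess, 0 and 0 were called. That kept only WT mice 2 and 4 and LivPGC-1β mice 2, 3, 5 and 6, so these 0 calls cannot be told apart from the loss of livers. Cyclic loess, normexp correction and a filter of detection on at least 1 array each left 1 lower. Leaving out each mouse gave 3 to 11 higher and 1 to 3 lower, with 3 higher without WT mouse 1, 4 without LivPGC-1β mouse 1 and 5 without LivPGC-1β mouse 3. For miR-7a the difference was −0.37 without normalization, −0.12 after scaling to the array median, −0.27 with chip position and −0.37 without those 5 arrays. With chip position, which cannot be told apart from genotype, miR-7a* differed by −2.21 and miR-375 by 0.96. Of the pairs, 0 to 1 passed when each mouse was left out. With the replicate block over 10 mice, 1 was higher and 0 lower, against 7 and 2 for the same mice without the block, and miR-7a differed by −0.31. The labels do not pair the mice by number. Same-numbered mice correlated at −0.07, −0.05, 0.07, −0.13 and −0.09, which cannot exclude a pairing. Intensities near the negative controls limit miR-216a and miR-217, which have no measured difference.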

Other observations

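The tissue lists also stood out in livers where the pancreas and endocrine microRNAs did not. In WT mouse 1 the summed normalized intensity of the 6 striated muscle microRNAs was 45851, and in LivPGC-1β mouse 4 it was 6775, against 2139 to 3163 in the other 9 livers. In WT mouse 3 the sum of the 16 X-linked testis microRNAs was 33920, against 6372 to 7485 in the other 10 livers. In these 3 livers miR-375 read 9.39 in LivPGC-1β mouse 4, 9.58 in WT mouse 1 and 9.58 in WT mouse 3, and miR-217 was not detected in any of them. Of the tested probes, miR-216b was highest in LivPGC-1β mouse 4, by 0.08 over the next liver, and miR-7b in WT mouse 3, by 0.12. The number of tested probes more than 1 log2 above every other liver was 1 in LivPGC-1β mouse 1, 4 in LivPGC-1β mouse 4, 5 in WT mouse 1, 8 in WT mouse 3 and 11 in WT mouse 5, and 0 in the other 6 livers.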
